A study of Rattus norvegicus with 8 samples.

Results

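The miR-26 family was followed across all arrays of a study of antipsychotic drugs in rat C6 cells, an established glioma line. Its members were taken by name, as the array's entries rno-miR-26a-5p, rno-miR-26b-5p and rno-miR-26b-3p, which are 3 of the 719 rat microRNAs (miRNAs) on the array; the rat prefix is left out below. The groups were C6 cells given haloperidol at 2 µg/ml, risperidone at 4 µg/ml or clozapine at 25 µg/ml, and C6 cells left untreated. The drugs went into the culture medium every day for 5 days, and the untreated controls were labelled with the same time. Each group had 2 arrays, which the design text calls biological repeats, and each array received 100 ng of Cy3-labelled total RNA. All groups were cultures of 1 tumour line in medium with animal serum, so no group held normal glia. Haloperidol is a first-generation antipsychotic, whereas risperidone and clozapine belong to the second generation.

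A miRNA is cut from a hairpin precursor, and either arm of the hairpin (5p or 3p) can be loaded into an Argonaute protein. The loaded arm pairs with messenger RNAs mainly through its seed, a short stretch near its 5′ end, and lowers their stability or translation. In mammals the miR-26 hairpins lie in introns of genes for small C-terminal domain phosphatases, and the 5p arms are the main products. In human and mouse work, Ezh2 (the methyltransferase of Polycomb repressive complex 2) is a target of miR-26a, and miR-26a is amplified in some human gliomas.

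The rat hairpins are shown first because the array measured both arms of miR-26b and because the 5p members differ at few bases. Sequences and positions are from RefSeq on GRCr8, and capitals mark the mature arms, 5p before 3p. Mir26a lies at chr8:127633048-127633137 on the plus strand, within the gene Ctdspl on the same strand. Mir26b lies at chr9:83425709-83425793 on the plus strand, within the gene Ctdsp1 on the same strand. Both host genes encode phosphatases of the kind named above.
Mir26a hairpin: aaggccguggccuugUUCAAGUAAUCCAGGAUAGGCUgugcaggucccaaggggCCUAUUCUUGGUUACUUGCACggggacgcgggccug
Mir26b hairpin: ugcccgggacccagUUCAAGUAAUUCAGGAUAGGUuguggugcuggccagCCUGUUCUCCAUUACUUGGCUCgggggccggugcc

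In the mature sequences, capitals mark the seed at bases 2 to 8. All 3 members matched the table by name, and miR-26a-3p is shown as the partner arm of miR-26a-5p.
miR-26a-5p: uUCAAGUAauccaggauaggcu
miR-26b-5p: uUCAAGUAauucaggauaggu
miR-26b-3p: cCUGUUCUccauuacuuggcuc
miR-26a-3p: cCUAUUCUugguuacuugcac
Over the 21 bases that can be compared, miR-26a-5p and miR-26b-5p were the same at 19. They differed by C11U and C21U, with the base of miR-26a-5p given first and positions counted from 1 at the 5′ end, and miR-26a-5p had 1 more base at its 3′ end. Both differences lay outside the seed. Of 693 mature rat miRNAs in the table, 2 had the seed UCAAGUA, and they were these 5p members. The seeds of miR-26b-3p and miR-26a-3p were each found in 1 mature miRNA. With so few differing bases, the probes of one 5p member may also capture the other, and cross-hybridisation between them was not tested.

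Signals are given on a log2 scale after division by the 75th percentile of the probes above background on that array, so that a level of 0 is that percentile. Levels describe 1 miRNA across arrays, since probes differ in how brightly they respond. The arrays detected 193 to 254 miRNAs each, and the fewest were on risperidone replicate 2 (193) and clozapine replicate 2 (203). Between 17.8% and 25.9% of probes were well above background, and 0 spots were saturated. The 8 arrays lay on 1 slide. The replicate number was the slide row, and each treatment had a slide column of its own, so that column and drug cannot be told apart. Of the 20 marker miRNAs listed for other cell types, 18 were on the array. Of these, 9 were detected on 0 arrays, among them the neuronal miR-124-3p, the liver miR-122-5p, the muscle miRNAs miR-1-3p and miR-133a-3p and the epithelial miR-200 family. Another 5 were detected on some arrays: miR-142-3p (3 arrays), miR-223-3p (4) and miR-150-5p (5) of leukocytes, miR-451-5p (2) of erythrocytes and the muscle miR-206-3p (5). The 4 detected on all 8 arrays were the neuronal miR-9a-5p and miR-128-3p, the oligodendrocyte miR-338-3p and the endothelial miR-126a-3p. Their part in the results was not tested.

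Both 5p members were detected on all 8 arrays, and neither passed the test under any drug. Their fitted levels were lower with each drug than in untreated cells by 0.08 to 0.37 on the log2 scale, but within intervals that included 0. Their sign against 0 changed with how the arrays were scaled for haloperidol and clozapine, and in 1 setting for risperidone, and the median of all miRNAs also moved between those settings. The 3p arm of miR-26b was near the limit of detection, at or just above the floor, the lowest value allowed, on every drug-treated array. The 3p arm of miR-26a was detected on 0 of 8 arrays.

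miR-26a-5p, the main product of Mir26a, had log2 levels of 1.43 and 1.13 with haloperidol, 1.28 and 1.12 with risperidone, 1.47 and 1.25 with clozapine, and 1.59 and 1.30 in untreated cells (replicates 1 and 2). The highest array was control replicate 1, and the drug and control values overlapped for haloperidol and clozapine. Both risperidone arrays lay below both control arrays, with 1.28 against 1.30 at the closest pair. Of all 243 miRNAs tested, 32.9% had both risperidone arrays below both control arrays. The mean level was lowest with risperidone (1.20 ± 0.11), followed by haloperidol (1.28 ± 0.21), clozapine (1.36 ± 0.16) and untreated cells (1.44 ± 0.20; SD, n = 2 each). Neighbours in this order overlapped in every case.

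miR-26b-5p, which shares the seed of miR-26a-5p, had log2 levels of 1.02 and 0.67 with haloperidol, 0.84 and 0.55 with risperidone, 1.09 and 0.79 with clozapine, and 1.30 and 0.84 in untreated cells. Control replicate 1 was again the highest array and risperidone replicate 2 the lowest, and each drug overlapped the controls, risperidone only at 0.8436 against 0.8395. The means had the same order as for miR-26a-5p. They were 0.70 ± 0.21 with risperidone, 0.84 ± 0.25 with haloperidol, 0.94 ± 0.21 with clozapine and 1.07 ± 0.33 in untreated cells (SD, n = 2 each). No neighbours in this order were separated.

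In both 5p members, replicate 1 was above replicate 2 in all 4 groups. For miR-26a-5p the gap was 0.29 with haloperidol, 0.16 with risperidone, 0.22 with clozapine and 0.29 in untreated cells, on the log2 scale. For miR-26b-5p it was 0.35, 0.29, 0.30 and 0.46 in the same order of groups. These gaps between slide rows were of the size of the differences between drugs and controls given below. The pooled SD within groups was 0.17 for miR-26a-5p and 0.25 for miR-26b-5p, against a median of 0.31 over the 243 miRNAs tested.

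**Figure D1:**
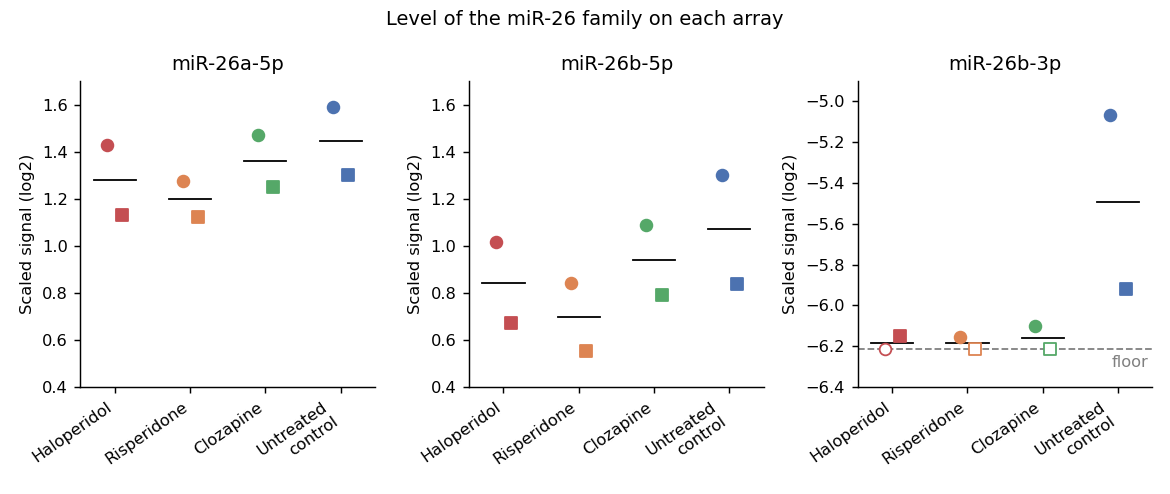
Log2 level of miR-26a-5p, miR-26b-5p and miR-26b-3p on each array (0 is the array's 75th percentile), with circles for replicate 1, squares for replicate 2 and a black bar for the group mean. Replicate 1 is above replicate 2 in every group for both 5p members, and the 3p arm is highest on the control arrays, at -5.07 and -5.92. Open symbols are values at the floor, drawn as a dashed line.

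The comparison of each drug with untreated cells asked which miRNAs respond to 5 days of exposure. The 3 comparisons share the same 2 control arrays and are therefore not independent. limma with Benjamini-Hochberg adjustment at 0.05 called 0 of 243 miRNAs (0%) with haloperidol, 0 (0%) with risperidone and 0 (0%) with clozapine. At an unadjusted p under 0.05 there were 17 miRNAs (7.00%) with haloperidol, 22 (9.05%) with risperidone and 36 (14.8%) with clozapine, and these held 0 members of the family. With the replicate number as a block, limma called 0 miRNAs with haloperidol (0%), 1 with risperidone (0.412%) and 2 with clozapine (0.823%). They were miR-338-5p with both drugs and miR-3561-5p with clozapine, named here after their values were seen, and none was a member. An F test over the 3 drug differences at once called 0 miRNAs (0%), with 8 at an unadjusted p under 0.05 (3.29%). Its adjusted p was 0.842 for miR-26a-5p, 0.842 for miR-26b-5p and 0.779 for miR-26b-3p.

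With haloperidol the fitted log2 difference from untreated cells was -0.16 for miR-26a-5p, with an SE of 0.18 and a 95% interval of -0.63 to 0.30 (limma adjusted p = 0.68). For miR-26b-5p it was -0.23, with an SE of 0.24 and an interval of -0.83 to 0.38 (limma adjusted p = 0.676). The means corresponded to 0.892 and 0.855 times the untreated level. The median difference over all 243 miRNAs was -0.15, and 60.5% of them were below 0. Relative to that median miR-26a-5p stood at -0.01 and miR-26b-5p at -0.08, and 48.6% and 41.2% of tested miRNAs had a lower difference. Within slide rows miR-26a-5p differed by -0.16 in the first row and -0.17 in the second, and miR-26b-5p by -0.28 and -0.17. The sign against 0 moved with the scaling. miR-26a-5p was at 0.06 with quantile normalization, 0.10 without scaling and 0.01 with cyclic loess, and miR-26b-5p was at 0.03 without scaling and 0.0047 without control replicate 1. Relative to the median of all miRNAs under the same setting, miR-26a-5p was at 0.14 with quantile normalization, 0.004 without scaling and 0.009 with cyclic loess, and miR-26b-5p was at -0.06 without scaling.

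With risperidone the difference was -0.25 for miR-26a-5p, with an SE of 0.18 and an interval of -0.71 to 0.22 (limma adjusted p = 0.549). For miR-26b-5p it was -0.37, with an SE of 0.24 and an interval of -0.98 to 0.24 (limma adjusted p = 0.516), or 0.773 times the untreated level. No test was made of one drug against another. The median over all tested miRNAs was -0.15, so miR-26b-5p stood at -0.22 relative to it, and 26.3% of tested miRNAs had a lower difference. With the replicate block the SE of miR-26b-5p was 0.10 and its unadjusted p 0.016, and its limma adjusted p of 0.133 again missed the threshold. Within slide rows miR-26b-5p differed by -0.46 in the first row and by -0.29 in the second, and miR-26a-5p by -0.31 and -0.18. Scaling to the percentile over all probes moved both 5p members to the other side, at 0.34 and 0.21, while the median of all miRNAs was at 0.35 under that setting. Without scaling they were at -0.86 and -0.99 (median of all -0.64), with quantile normalization at -0.02 and -0.35 (median -0.06), and with cyclic loess at -0.0162 and -0.0572 (median 0). Without control replicate 1 they were at -0.10 and -0.14 (median -0.13). Relative to that median miR-26a-5p stood at 0.03 and miR-26b-5p at -0.0085.

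With clozapine the difference was -0.08 for miR-26a-5p, with an SE of 0.18 and an interval of -0.55 to 0.38 (limma adjusted p = 0.857). For miR-26b-5p it was -0.13, with an SE of 0.24 and an interval of -0.74 to 0.48 (limma adjusted p = 0.815). The median over all miRNAs was -0.17 and 66.3% were below 0, so both 5p members stood slightly above it, by 0.09 and 0.05. In the first slide row they differed by -0.12 and -0.21, and in the second both by -0.05. The sign of both was positive with the percentile over all probes (0.57 and 0.52), quantile normalization (0.14 and 0.02) and cyclic loess (0.12 and 0.06). Under these settings the median of all miRNAs was 0.42, -0.05 and 0.04, so that both members stayed above it, by 0.14 and 0.09, 0.19 and 0.07, and 0.08 and 0.01. Relative to the median they stood at -0.86 and -0.88 with normexp and at -0.08 and -0.13 without the detection filter. Without control replicate 2 they stood at -0.04 and -0.18. Only miR-26b-5p was below it without scaling (-0.008), with the brightest probe (-0.0019) and without clozapine replicate 1 (-0.03). Their sign was also positive without control replicate 1 (0.06 and 0.10) and without clozapine replicate 2 (0.03 and 0.02).

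**Figure D2:**
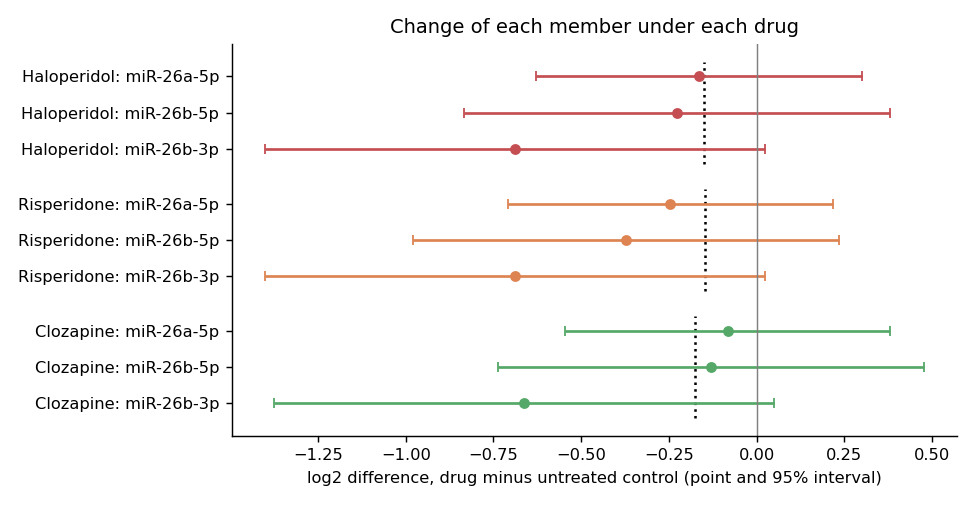
Fitted log2 difference of each member, drug minus untreated control, with its 95% interval from limma; the dotted lines mark the median difference of all 243 tested miRNAs under that drug. Every interval includes 0, the 5p members lie close to the dotted lines with haloperidol and clozapine, and miR-26b-3p lies farthest below 0.

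Each 5p member was read by 2 probes of 10 spots each. Unscaled, the summed signal of miR-26a-5p spanned 834 to 3978 over the arrays, a 4.77-fold range, and that of miR-26b-5p spanned 562 to 2996, a 5.33-fold range. After scaling, the ranges were 0.47 and 0.75 log2 units. Spots of 1 probe on 1 array varied by a CV of 1.14% to 7.52% for miR-26a-5p and 1.74% to 4.88% for miR-26b-5p, so spot noise was small beside the differences between arrays. Both probes of a member gave nearly the same difference. With risperidone these were -0.23 and -0.25 for miR-26a-5p and -0.37 and -0.37 for miR-26b-5p. With haloperidol they were -0.18 and -0.15, and -0.23 and -0.22. With clozapine they were -0.07 and -0.09, and -0.12 and -0.14.

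**Figure D3:**
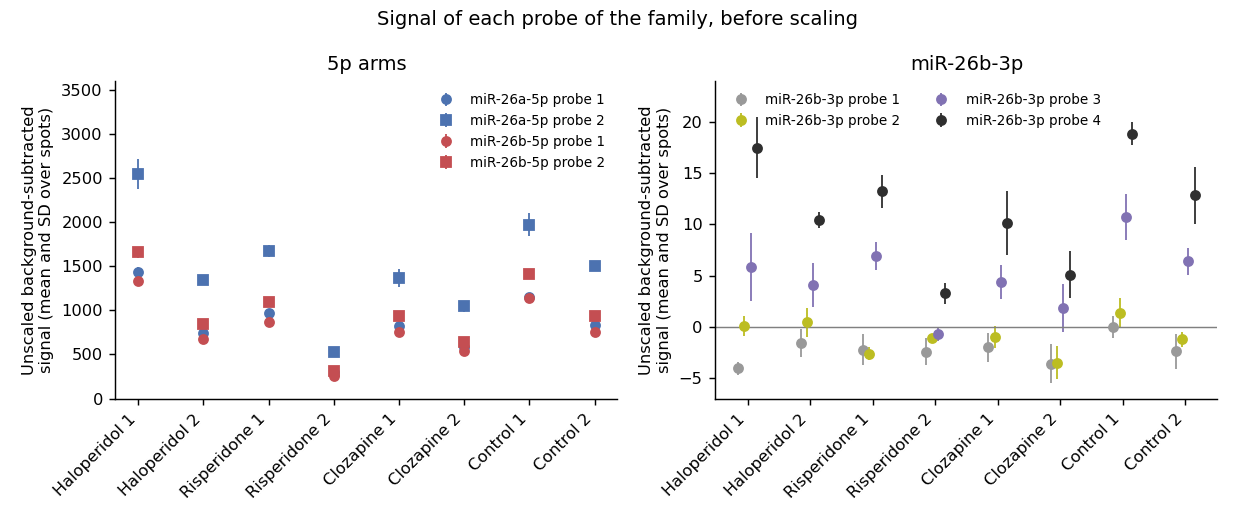
Unscaled background-subtracted signal of each probe on each array, as the mean and SD over its spots, for the 5p members (left) and miR-26b-3p (right, with its own axis). The 5p probes follow the array-wide brightness and are dimmest on risperidone replicate 2. Probes 1 and 2 of miR-26b-3p lie near or below 0 on all arrays, and only probe 4 is above 0 on every array.

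miR-26b-3p, the partner arm cut from the same hairpin as miR-26b-5p, was called detected on 2 haloperidol, 1 risperidone, 1 clozapine and 2 control arrays. Its log2 level was -6.21 and -6.15 with haloperidol, -6.15 and -6.21 with risperidone, -6.10 and -6.21 with clozapine, and -5.07 and -5.92 in untreated cells. The value of -6.21 is the floor, so haloperidol replicate 1, risperidone replicate 2 and clozapine replicate 2 have no order among them. All 6 drug arrays lay below both control arrays. A bound was taken from its brightest probe, raised on each drug array to the dimmest probe well above background where it was lower. On the log2 scale, the control mean of that probe minus the bound was 0.38 for haloperidol, -0.31 for risperidone and -0.20 for clozapine. The bound thus does not show a lower level with risperidone or clozapine, and the value for haloperidol was not tested. The share of tested miRNAs with both drug arrays below both controls was 32.9% for haloperidol, 32.9% for risperidone and 34.2% for clozapine. The 2 arrays on which miR-26b-3p was not detected, risperidone replicate 2 and clozapine replicate 2, were also the 2 with the fewest detected miRNAs.

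The raw signal of miR-26b-3p was small. Summed over 4 probes of 5 spots it was 19.3 and 13.4 with haloperidol, 15.3 and -0.999 with risperidone, 11.5 and -0.0823 with clozapine, and 30.9 and 15.7 in untreated cells. Of its 20 spots on an array, 4 and 0 were well above background with haloperidol, 4 and 0 with risperidone, 1 and 0 with clozapine, and 6 and 4 in untreated cells. Control replicate 1 was the brightest, and control replicate 2 was within the range of the drug arrays before scaling. Probe 4 carried most of the signal, at 17.5 and 10.4 with haloperidol, 13.2 and 3.29 with risperidone, 10.1 and 5.11 with clozapine, and 18.8 and 12.9 in untreated cells.

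The fitted log2 difference of miR-26b-3p was -0.69 with haloperidol (SE 0.28, 95% interval -1.40 to 0.03, limma adjusted p = 0.576). It was -0.69 with risperidone (interval -1.40 to 0.02, limma adjusted p = 0.453) and -0.66 with clozapine (interval -1.38 to 0.05, limma adjusted p = 0.364). The floor hides spread, so these errors may be too small, and no probe was well above background on either clozapine array, so no fold is given. The values rested on control replicate 1. Without it they were -0.26 with haloperidol, -0.26 with risperidone and -0.24 with clozapine, and none was called. Without control replicate 2 they were -1.11, -1.12 and -1.09 for haloperidol, risperidone and clozapine. limma then called miR-26b-3p with all 3 drugs, but these calls are not read as a drug effect here, and their cause was not tested. With 1 control array left, the within-group spread of miR-26b-3p comes only from the drug groups, each with 1 array at the floor. Their SD was 0.04, 0.04 and 0.08, against 0.60 between the 2 control arrays. The remaining control array is assumed to vary like the drug groups, although the 2 control arrays lay farther apart. Each SD rests on 2 arrays, and the floor hides spread in the drug groups. In that fit limma called 5 (2.06%), 6 (2.47%) and 7 (2.88%) of the 243 miRNAs for haloperidol, risperidone and clozapine, with 59, 61 and 67 at an unadjusted p under 0.05. In the first slide row the differences were -1.14, -1.09 and -1.03, and in the second -0.23, -0.29 and -0.29, for haloperidol, risperidone and clozapine. With the floor at the 1st percentile they were -0.71, -1.53 and -1.50, and with normexp background correction the signs were positive with risperidone (0.50) and clozapine (1.14). The differences were smaller in size with cyclic loess (-0.28, -0.20 and -0.36) and with the brightest probe (-0.45, -0.43 and -0.39). With the deposited gene-level signals they were -0.27 for each drug. The value is the same because all drug arrays were at the floor in that setting, so it does not compare the drugs.

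The arm ratio of miR-26b was taken on each array as the log2 signal of the 5p arm minus that of the 3p arm. The scaling of an array cancels in it above the floor. It is a ratio of probe signals and not of molecules, so only its difference between arrays is read. It was 7.23 and 6.82 with haloperidol, 7.00 and 6.76 with risperidone, 7.19 and 7.00 with clozapine, and 6.37 and 6.76 in untreated cells. Haloperidol replicate 1, risperidone replicate 2 and clozapine replicate 2 are lower bounds, because the 3p arm was at the floor there. All 6 drug arrays lay above both control arrays, but risperidone replicate 2 and control replicate 2 were the same to 2 decimals. The bound on the 3p arm given above limits the risperidone and clozapine ratios too.

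limma was fitted over the 50 hairpins with both arms tested, of 262 with both arms on the array, and called 0 hairpins (0%) for each drug. At an unadjusted p under 0.05 it found 2 with haloperidol, 4 with risperidone and 4 with clozapine. Only 30 of the 50 hairpins had no value at the floor in either arm, so the others, miR-26b among them, include bounds. For miR-26b the fitted difference in arm ratio was 0.46 with haloperidol (limma adjusted p = 0.566), 0.32 with risperidone (limma adjusted p = 0.569) and 0.53 with clozapine (limma adjusted p = 0.578). With 1 array of each drug at a bound these values depend on where the floor is set, and no interval is given. With the floor at the 1st percentile they were 0.48, 1.16 and 1.37, and with the brightest probe alone 0.22, 0.0559 and 0.25. The median over the 50 hairpins was 0.10, 0.01 and 0.10 for haloperidol, risperidone and clozapine. A difference above 0 was found in 28 (56.0%), 25 and 26 (52.0%) of the 50 hairpins. Both drug arrays were above both control arrays in 22.0%, 18.0% and 12.0% of them. The ratio turned to the other side with normexp for risperidone (-0.83) and clozapine (-1.26), and with the deposited gene-level signals for risperidone (-0.14), where haloperidol and clozapine were at 0.0359 and 0.18. With the replicate block 1 hairpin was called with risperidone and 1 with clozapine; in both cases it was miR-338, named after its values were seen.

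The 5p members moved together from array to array. Pearson's r of their log2 levels was 0.991 over the 8 arrays and Spearman's rho 0.976, given as a description, since the arrays share their scaling and their slide row and since the probes may capture both members. miR-26b-5p minus miR-26a-5p was -0.41 and -0.46 with haloperidol, -0.43 and -0.57 with risperidone, -0.38 and -0.46 with clozapine, and -0.29 and -0.46 in untreated cells. Drug and control values overlapped for all 3 drugs, and control replicate 1 had the smallest gap between the members. Averaged over arrays, the gap differed from that of untreated cells by -0.06, -0.13 and -0.05 for haloperidol, risperidone and clozapine. An exact two-sided permutation test of 2 against 2 arrays gave p = 0.667, 0.667 and 1, or 1 for each after Benjamini-Hochberg adjustment over the 3 tests, and cannot go below 0.333 in this design. Without control replicate 1 the difference was 0.02, -0.04 and 0.04, and without control replicate 2 it was -0.15, -0.21 and -0.13.

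**Figure D4:**
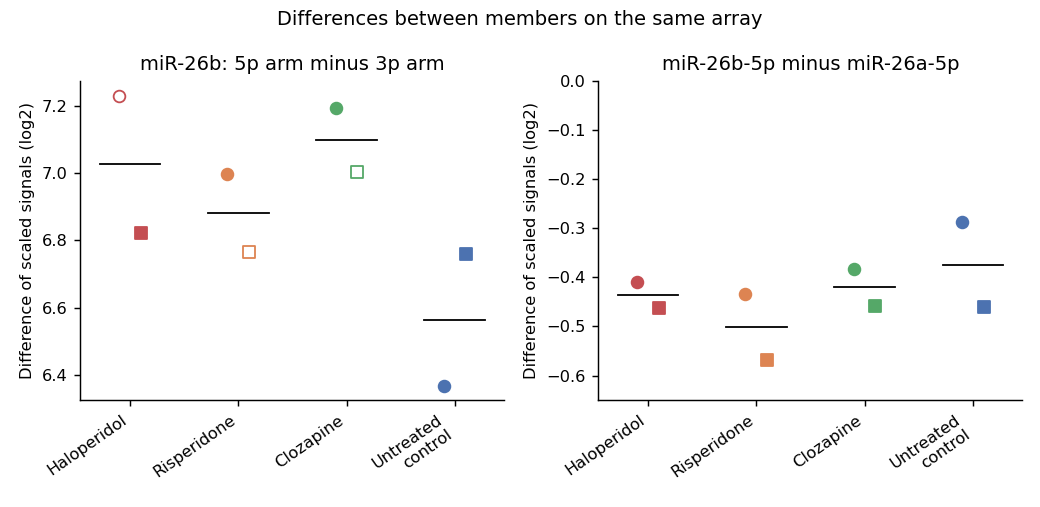
Differences between members on the same array, in log2 units: the 5p arm minus the 3p arm of miR-26b (left) and miR-26b-5p minus miR-26a-5p (right). Circles are replicate 1, squares replicate 2, bars group means, and open symbols lower bounds with the 3p arm at the floor; control replicate 1 has the lowest arm ratio, at 6.37.

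The pattern of the 5p members over the arrays was most like that of a few other miRNAs, compared by Pearson's r of log2 level over the 8 arrays among 183 other miRNAs detected on all of them. For miR-26a-5p these were miR-30c-5p (r = 0.949), miR-23b-3p (0.944), miR-322-3p (0.936), miR-100-5p (0.933) and miR-99a-5p (0.914). For miR-26b-5p they were miR-30c-5p (0.974), miR-322-3p (0.966), miR-23b-3p (0.956), miR-100-5p (0.954) and miR-151-5p (0.943). The median r over the 183 was 0.22 for miR-26a-5p and 0.225 for miR-26b-5p, and 9 and 14 of them were above 0.9. miR-30c-5p had log2 levels of -0.81 and -1.01 with haloperidol, -0.82 and -1.12 with risperidone, -0.69 and -0.88 with clozapine, and -0.53 and -0.93 in untreated cells. As in the 5p members, replicate 1 was above replicate 2 in each group and control replicate 1 was the highest array. The miRNAs nearest to miR-26b-3p were miR-125b-5p (0.969), miR-25-3p (0.967), miR-92a-3p (0.934), miR-98-5p (0.934) and let-7d-5p (0.927), but 3 of its 8 values were at the floor. Its other drug values, at -6.15, -6.15 and -6.10, lay just above the floor of -6.21. These r therefore rest mainly on the control arrays.

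Other miRNAs known from human or mouse work to target Ezh2 were given as a list beside the family. Of 13 Ezh2-targeting miRNAs, 11 were tested, and miR-138-5p and miR-124-3p were detected on 0 arrays. limma called 0 of the 11 with each drug, and 9 of 11 were below 0 with each drug, beside 60.5%, 60.5% and 66.3% of all tested miRNAs for haloperidol, risperidone and clozapine. The list's median was -0.34, -0.40 and -0.40, beside -0.15, -0.15 and -0.17 over all tested miRNAs. Without control replicate 1 it was -0.11, -0.14 and -0.15, beside -0.11, -0.13 and -0.18 over all tested miRNAs. In that setting 9, 9 and 10 of 11 were below 0, beside 70.0%, 69.1% and 70.8% of all tested. There let-7b-5p (risperidone) and let-7i-5p (haloperidol) were above 0, whereas they were below 0 with both control arrays. By contrast, miR-101b-3p was below 0 there with all 3 drugs (-0.0026, -0.13 and -0.14) and above 0 with both control arrays. The list holds 8 let-7 and miR-98 members, which share a seed and much of their sequence, so they are not separate measurements. The lowest was miR-214-3p, at -0.46, -0.84 and -0.88 for haloperidol, risperidone and clozapine. The highest was miR-101a-3p at 1.145, 1.005 and 0.943 (SE 0.62, limma adjusted p = 0.576, 0.516 and 0.569), and these values were 0.28, 0.14 and 0.08 without control replicate 1. The 5p members of the miR-26 family lay within the range of this list under every drug.

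**Figure D5:**
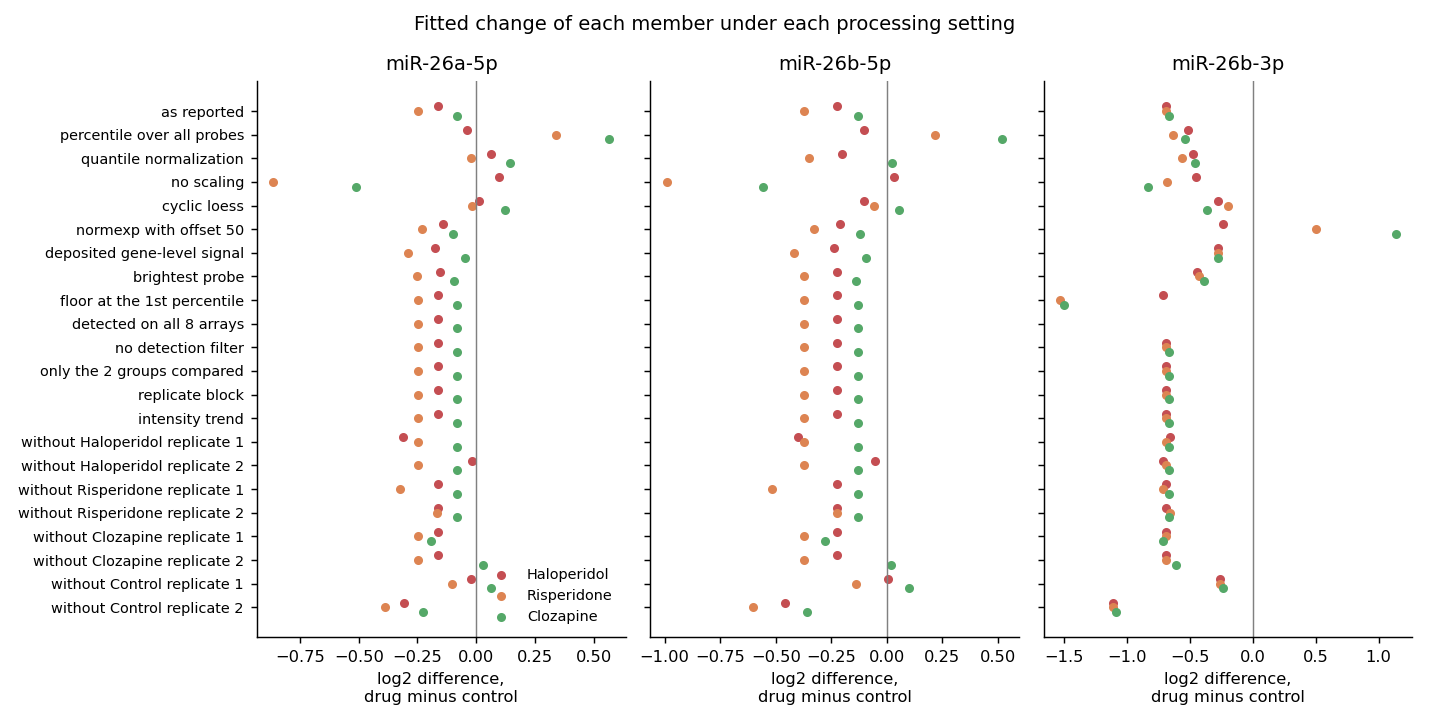
Fitted log2 difference of each member, drug minus untreated control, as reported and under 21 planned settings (rows), with 1 point per drug. The 5p members cross 0 under several scalings, miR-26b-3p crosses 0 with normexp only, and it has no value when the filter asks for detection on all 8 arrays.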

How the data were processed

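The deposited values were signals of unit intensity, linear and unscaled between arrays, made with Agilent Feature Extraction 10.7.3.1 per the file headers. Flags for spots well above background, outlier spots and detected miRNAs, deposited as 0 or 1, have the unit other. Spot signals with background already subtracted were averaged within a probe, leaving out outlier spots, and then added up over the probes of a miRNA. Each sum was scaled to the 75th percentile of 292 probes above background on every array. Values under 0.0135, the 5th percentile of detected miRNAs, were set to it (log2 -6.21). The test took 243 miRNAs, those detected on both arrays of 1 or more groups, and left out 476. Group means over 8 arrays were fitted with limma 3.58.1 in R 4.3.3, two-sided, with 4 residual degrees of freedom and Benjamini-Hochberg adjustment over all tested miRNAs; the number of arrays limits the precision. The fits were tested on simulated data with independent normal noise. The simulation had no floor and no slide-row effect, so it does not cover those features. Same-numbered arrays, which share a slide row, deviated together in all 6 pairs of groups (r = 0.163 to 0.714), so a fit with the replicate block is given. Normexp used spot and background medians, because the spot-level data held no spot means. The named miRNAs were the members, the 5 most like each in pattern, and at most 4 of the target list; 1 further target list is not reported here. Members, lists and tests were chosen with earlier results of these data known.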

Additional observations from a re-analysis of the deposited data

How the results depend on the processing

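Without 1 array at a time, limma made between 0 and 5 calls for haloperidol, between 0 and 6 for risperidone and between 0 and 7 for clozapine, each highest without control replicate 2. The called hairpins then numbered 0 to 2, 0 to 3 and 0 to 2, and the F test made 0 calls throughout. In the order haloperidol, risperidone, clozapine, the arm ratio of miR-26b differed by 0.26 to 0.67, 0.12 to 0.51 and 0.34 to 0.73. miR-26b-5p minus miR-26a-5p differed by -0.148 to 0.0246, -0.213 to -0.0397 and -0.133 to 0.0402. The ranges were -0.31 to -0.02, -0.39 to -0.10 and -0.23 to 0.0613 for miR-26a-5p, -0.46 to 0.0047, -0.60 to -0.14 and -0.36 to 0.10 for miR-26b-5p, and -1.11 to -0.26, -1.12 to -0.26 and -1.09 to -0.24 for miR-26b-3p.

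A member's sign turned with the percentile over all probes for miR-26a-5p (risperidone 0.34, clozapine 0.565) and miR-26b-5p (0.21, 0.52). It turned with quantile normalization for miR-26a-5p (haloperidol 0.063, clozapine 0.14) and miR-26b-5p (clozapine 0.0235), and without scaling for haloperidol (miR-26a-5p 0.0958, miR-26b-5p 0.034). With cyclic loess it turned for miR-26a-5p (haloperidol 0.011, clozapine 0.12) and miR-26b-5p (clozapine 0.0556), and with normexp for miR-26b-3p (risperidone 0.50, clozapine 1.14). The arm ratio turned with normexp (risperidone -0.83, clozapine -1.26) and with the deposited gene-level signals (risperidone -0.14). Without clozapine replicate 2 alone, or without both arrays with the fewest detected miRNAs (chosen after seeing the data), clozapine had 0.0278 for miR-26a-5p and 0.0197 for miR-26b-5p. The causes were not tested. The median of all tested miRNAs moved too. It lay at -0.04, 0.35 and 0.42 when scaled over all probes, at 0.09, -0.64 and -0.55 when not scaled, and at -0.11, 0.38 and 0.76 under normexp.

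Without the detection filter limma called 1 miRNA with risperidone, miR-221-3p, named after its value was seen. The replicate block gave 1 call with risperidone and 2 with clozapine, and 1 called hairpin with each, and changed no call for the family. A filter on detection on all 8 arrays leaves out miR-26b-3p, so it gives no value for that arm or for the arm ratio. Signal over background limits what can be read from miR-26b-3p.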
